A study of Caenorhabditis elegans with 2 samples.

Results

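F08G2.12, F08G2.13, W01D2.7, W01D2.8, W01D2.9 and C17G10.14 are 6 genes on chromosome II of *Caenorhabditis elegans* that the annotation lists as noncoding RNA with no class of their own. They are 6 of 7761 such genes, which are called unclassified ncRNA genes here, and of 46890 annotated genes of all kinds. They were chosen by name for the strength of the SNPC-4 peaks beside them, so the peak signals, ranks and positions below describe them and support nothing. A gene counted as having a peak when a summit of the authors' peak list for both replicates lay within 300 bp of its 5′ end. All 6 had one, beside 112 of all 7761 unclassified ncRNA genes (1.44%) and 132 of 19973 protein-coding genes (0.661%), and nothing is read from that contrast because it chose the members.

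The peaks came from chromatin immunoprecipitation followed by sequencing (ChIP-seq) of whole L4 larvae, with males and females pooled. The strain, OP179, is an unc-119(ed3) III mutant with the insertion wgIs179, a transgene that expresses SNPC-4 fused to eGFP, whose promoter the labels do not name. There is 1 group of 2 biological replicates, and a control without the tag was not analysed here. Whole animals were used, so the cell types behind a peak cannot be told apart, and the peaks are those of the tagged protein.

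SNPC-4 is related to the largest subunit of SNAPc, the protein complex that activates small nuclear RNA (snRNA) genes, and carries Myb-type repeats that contact DNA. In vertebrates SNAPc recognises a proximal sequence element upstream of small nuclear RNA genes and serves both RNA polymerase II and RNA polymerase III. There, a TATA box downstream of the element marks the promoters read by RNA polymerase III, and short runs of T end that polymerase's transcripts. In the list for both replicates, 28 of 89 snRNA genes, 14 of 18 SL2 spliced leader genes and 39 of 344 snoRNA genes had a peak.

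The 5 short genes among the 6 shared a series of letters around their 5′ ends, and their sequences are printed for that reason. Each line runs 5′ to 3′ on the gene's strand, from 100 bases before the annotated 5′ end to 15 bases past the 3′ end, in the RefSeq genome of WBcel235, the same sequence as ce11. Capitals mark, in order, the TATA run, the block GTCCGG, a second block that reads TGGGTTA and, near the 3′ end, the block CTTGAC.
F08G2.12, chrII:13834872-13835054, strand minus: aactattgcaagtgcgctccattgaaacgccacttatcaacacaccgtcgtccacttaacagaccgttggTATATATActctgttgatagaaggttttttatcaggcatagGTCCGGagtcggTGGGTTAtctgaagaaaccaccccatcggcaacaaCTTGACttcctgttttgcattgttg
F08G2.13, chrII:13834434-13834623, strand minus: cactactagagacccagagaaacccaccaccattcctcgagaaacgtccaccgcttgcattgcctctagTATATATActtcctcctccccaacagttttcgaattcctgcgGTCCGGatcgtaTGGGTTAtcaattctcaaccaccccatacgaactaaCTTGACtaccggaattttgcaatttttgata
W01D2.7, chrII:14804402-14804574, strand plus: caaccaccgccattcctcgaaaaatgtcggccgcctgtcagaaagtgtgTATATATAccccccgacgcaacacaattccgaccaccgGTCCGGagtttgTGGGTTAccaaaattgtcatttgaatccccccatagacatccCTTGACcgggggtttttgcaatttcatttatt
W01D2.8, chrII:14801335-14801527, strand minus: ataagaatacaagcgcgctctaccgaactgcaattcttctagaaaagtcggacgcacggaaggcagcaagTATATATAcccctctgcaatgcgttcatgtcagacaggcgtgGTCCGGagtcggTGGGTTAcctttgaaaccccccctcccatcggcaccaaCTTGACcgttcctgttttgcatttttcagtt
W01D2.9, chrII:14804695-14804891, strand plus: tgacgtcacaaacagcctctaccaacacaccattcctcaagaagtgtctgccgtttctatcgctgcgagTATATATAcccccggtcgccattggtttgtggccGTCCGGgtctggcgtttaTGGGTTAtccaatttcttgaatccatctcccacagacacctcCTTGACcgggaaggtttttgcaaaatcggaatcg

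C17G10.14 held neither the block GTCCGG nor, anywhere in the gene, the block TGGGTTA. Its peak lay farther upstream, so the 120 bases that hold its summit are printed instead, and the capitals mark the site described further on.
C17G10.14 peak, chrII:5599663-5599782, strand plus: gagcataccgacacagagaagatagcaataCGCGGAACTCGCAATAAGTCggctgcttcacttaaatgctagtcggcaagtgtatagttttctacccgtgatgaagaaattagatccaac

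The genes fall into 3 places on the chromosome. F08G2.12 (WBGene00044973, chrII:13834887-13834954, minus strand, 68 bases) and F08G2.13 (WBGene00045119, chrII:13834449-13834523, minus strand, 75 bases) lie head to tail with 363 bases between them. Both are outside protein-coding genes. On the upstream side ins-37, an insulin-like peptide gene on the same strand, ends 146 bases before F08G2.12 begins, and on the downstream side F08G2.5, also protein-coding and on the same strand, lies 817 bases from F08G2.13. The snRNA gene F08G2.9 and the ncRNA gene R05D7.8 are 982 and 961 bases from F08G2.12, overlapping ins-37. Neither has its 5′ end within 300 bp of either peak.

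About 970 kb further along lie W01D2.7, W01D2.9 and W01D2.8. W01D2.7 (WBGene00045123, chrII:14804502-14804559, plus strand, 58 bases) and W01D2.9 (WBGene00220108, chrII:14804795-14804876, plus strand, 82 bases) are again head to tail, with 235 bases between them and outside protein-coding genes. W01D2.8 (WBGene00045372, chrII:14801350-14801427, minus strand, 78 bases) sits 3074 bases away on the other strand, in an intron of the protein-coding gene W01D2.3 and on its strand. W01D2.3 starts 192 bases from W01D2.7 and is read away from it. The next genes outward are srt-11, a serpentine receptor gene 1109 bases from W01D2.9, and tbc-20, a TBC domain gene 378 bases from W01D2.8.

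C17G10.14 (WBGene00271650, chrII:5599929-5600505, plus strand, 577 bases) is 8235 kb from F08G2.12 and is of another kind. It lies within the protein-coding gene C17G10.6, on the opposite strand, and overlaps one of its exons. The protein-coding gene C17G10.10 starts 552 bases upstream of it and is read away from it, and C17G10.11, an ncRNA gene, is 5129 bases away on the other side. The median length of unclassified ncRNA genes was 140 bases, so the other 5 genes are short for their class and C17G10.14 is long.

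Peak signal is the authors' value per peak, on a scale that the sources used here do not state, so it is compared within a list only. The IDR list holds the 381 peaks kept after the irreproducible discovery rate step over both replicates, and each was identical in interval, summit and signal to a peak of the pooled list. An offset is the distance of a summit from the annotated 5′ end along the gene's strand, negative upstream.

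F08G2.13 had the third strongest peak of the IDR list, at a signal of 1005 with the summit at −33. It had 553 in replicate 1 and 467 in replicate 2, rank 3 in each list, with summits at −29 and −38. Only a peak at the snoRNA gene Y53F4B.47 (1230) and one at the snRNA gene W05B2.8, the RefSeq name of WBGene00014543, (1112) were stronger in the IDR list. W01D2.7 came next among the 6, with a signal of 588 (rank 12, offset −47) in the IDR list. Its replicate signals were 294 at rank 13 in replicate 1 and 268 at rank 15 in replicate 2, with summits at −43 and −38. These 2 genes led the other 4 in both replicates.

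C17G10.14 had a signal of 384 (rank 30) in the IDR list. The replicates gave 155 at rank 34 in replicate 1 and 228 at rank 20 in replicate 2. Its summit lay at −219, −204 and −219 in the IDR list, replicate 1 and replicate 2, the farthest from its gene in every list. The IDR interval, chrII:5599573-5599853, ended before the annotated gene began. At the same summit the 5′ end of C17G10.10 was 334 bp away.

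F08G2.12 had a signal of 186 (rank 50, offset −88) in the IDR list. It had 149 at rank 35 in replicate 1 and 83.7 at rank 58 in replicate 2, with summits at −60 and −88. W01D2.8 had 171 (rank 57, offset −39), with 87.2 at rank 52 in replicate 1 and 87.3 at rank 56 in replicate 2. The order of these 2 genes changed between the replicates, and C17G10.14 and F08G2.12 were next to each other in rank in replicate 1 only. The summit of W01D2.8 was at −20 in replicate 1 and −39 in replicate 2.

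W01D2.9 was the weakest of the 6 in all lists. Its signal was 148 (rank 59, offset −141) in the IDR list, 49.9 at rank 62 in replicate 1 and 60.3 at rank 68 in replicate 2. It shared 1 interval with W01D2.7 in the IDR list, chrII:14804264-14804901, which at 638 bases was the widest of the 381 peaks' intervals, with a summit for each gene. In the replicate lists the interval was split into 2. Replicate 1 had chrII:14804283-14804639 and chrII:14804604-14804888, and replicate 2 had chrII:14804313-14804601 and chrII:14804653-14804837. The summit nearest to W01D2.9 also lay within the window of W01D2.7, at 152 past its 5′ end, so the 6 genes made 7 pairs of a gene and a peak over 6 distinct peaks.

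**Figure D1:**
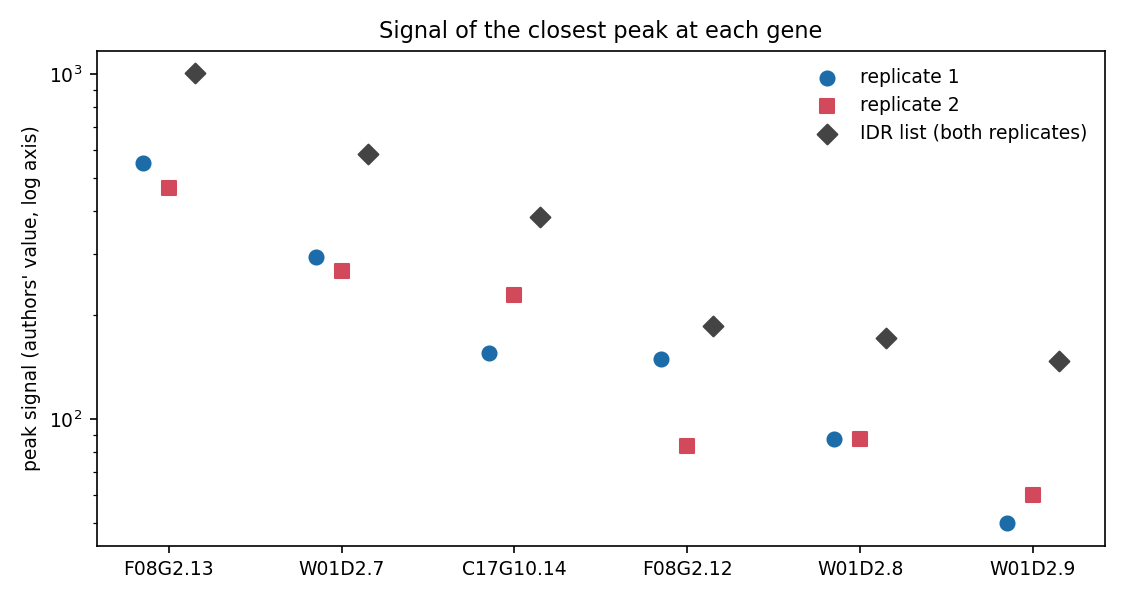
Signal of the peak closest to each of the 6 genes (authors' value, log axis) in replicate 1 (circles), replicate 2 (squares) and the IDR list of both replicates (diamonds). Genes run from the strongest to the weakest IDR peak, 1005 at F08G2.13 to 148 at W01D2.9, and the scales of the 3 lists are not shared.

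Across the 6 genes the IDR signal ranged between 148 and 1005 with a median of 285, beside a median of 31.7 over the 381 peaks. Ranks ran between 3 and 59 in the IDR list, 3 and 62 among 11042 peaks in replicate 1, and 3 and 68 among 30000 peaks in replicate 2. All 6 closest summits lay upstream of the 5′ end in each of the 3 lists. The median offset was −67.5 in the IDR list, −51.5 in replicate 1 and −63.5 in replicate 2.

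**Figure D2:**
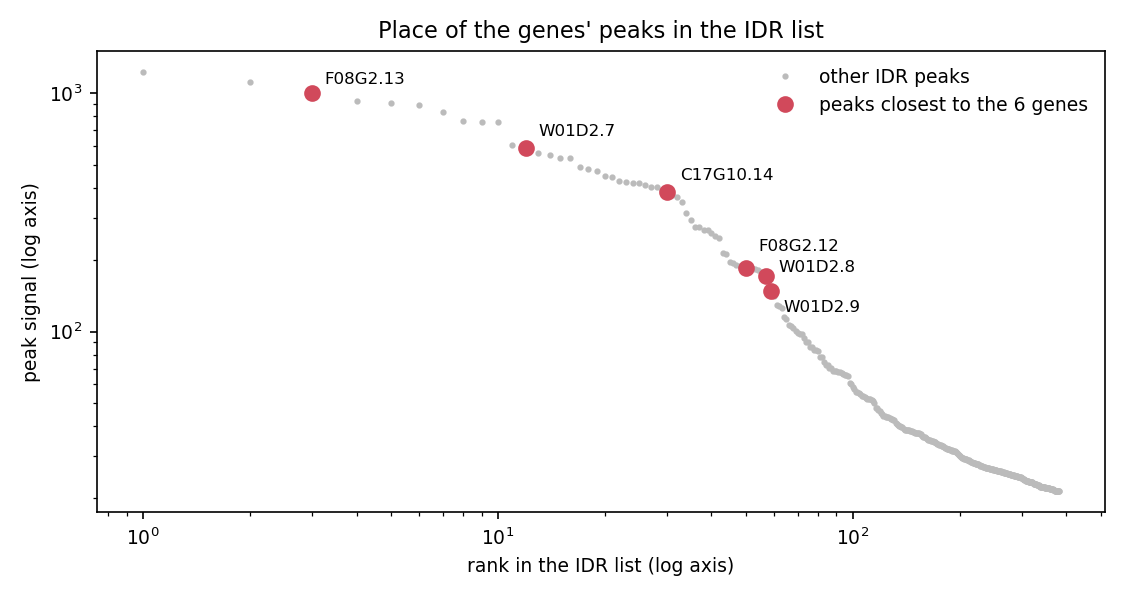
Signal of each of the 381 IDR peaks against its rank (both axes log), with the peaks closest to the 6 genes in red and the others in grey. The 6 peaks fall between rank 3 (F08G2.13) and rank 59 (W01D2.9).

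The window of 300 bp decided little for these genes. C17G10.14 at −219 was the closest-peak offset nearest to its edge from inside. Just outside it, the W01D2.7 summit was at −340 from W01D2.9, and the F08G2.13 summit was at 398 from F08G2.12. Among the other unclassified ncRNA genes of chromosome II, those nearest outside were C16C8.23, with a peak of signal 23.1 (rank 323) at 589, and lfor-1, with one of 51.8 (rank 113) at 664. The tandem genes thus each had a summit of their own, and the neighbour's summit fell outside the window in 3 of 4 cases.

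**Figure D3:**
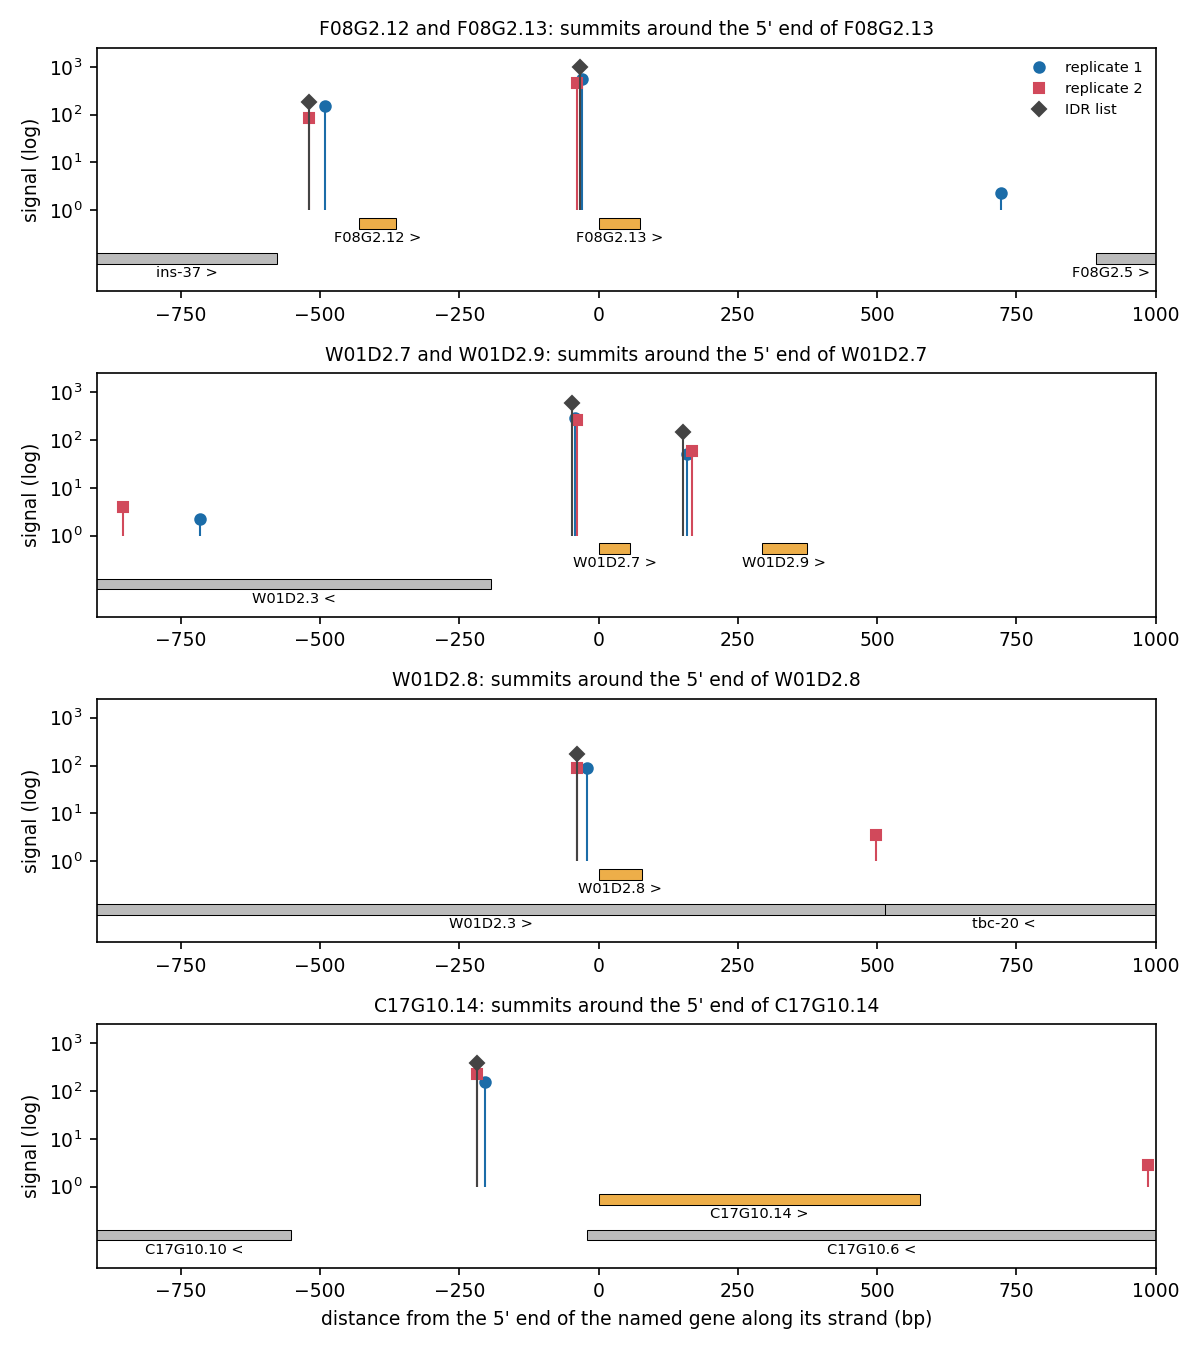
Summits of replicate 1 (circles), replicate 2 (squares) and the IDR list (diamonds) at 4 places, by signal (log axis) and by distance in bp along the strand of the gene named above each panel, whose 5′ end is at 0. Members are in orange and protein-coding genes in grey, with arrows for their direction; each member has a summit upstream of it in all 3 lists, and the few others in view are weak replicate peaks.

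None of the 6 peaks lay within 300 bp of the 5′ end of an annotated snRNA, spliced leader, SmY, tRNA, snoRNA, miRNA or rRNA gene. The W01D2.7 summit also lay 146 bp upstream of the 5′ end of W01D2.3. On chromosome II, 29 of 1088 unclassified ncRNA genes had a peak, and for 11 of the 29 no such small RNA 5′ end was near. The 3 strongest of the others shared their peak with a small RNA gene. C17C3.23 (766, rank 8, offset 146) shared it with the spliced leader gene sls-2.2, F01D5.14 (755, rank 10, offset 143) with the snoRNA gene F01D5.12, and F58G1.11 (536, rank 15, offset 36) with sup-6, annotated as snRNA. In these 3 the summit was downstream of the ncRNA gene's 5′ end. Over the whole genome the other 30 peaks with an unclassified ncRNA 5′ end and no small RNA one had signals between 21.8 and 251, median 34.5, and 20 of the 30 summits were upstream.

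The 5 short genes were aligned with one another, with no unrelated sequences aligned beside them. The identities thus rank the pairs and do not by themselves show resemblance. By global alignment of the 5 genes' annotated spans, identity over the 10 pairs ran between 49.3% and 73.8% with a median of 59.0%. Over the 100 upstream bases it ran between 45.5% and 63.9% with a median of 54.7%. Over the annotated spans the closest pair was F08G2.12 and W01D2.8, which lie in different places. Over the 100 upstream bases it was W01D2.8 and W01D2.9, and over the 170 bases around TGGGTTA it was the tandem pair W01D2.7 and W01D2.9, at 69.4% beside 65.9% for F08G2.12 and W01D2.8. F08G2.12 and W01D2.8 were the only pair that blastn aligned at 80% identity or more over at least 80% of the gene, at 81.8% over 66 bases. In the 170 bases around TGGGTTA in each short gene, and around the summit at C17G10.14, all 135 words of 36 bases occurred once in the genome.

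Placed by TGGGTTA, the shared letters fell into the same order in the 5 genes, and the annotated 5′ end did not. TGGGTTA began 23 bases past the first base in F08G2.12 and F08G2.13, 24 past it in W01D2.8 and 21 past it in W01D2.9. In W01D2.7 it began at −1, so that gene's annotated start lies farther into the shared stretch than in the other 4. TATATA accordingly began at −30, −31, −30 and −31 in F08G2.12, F08G2.13, W01D2.8 and W01D2.9, and at −51 in W01D2.7. Measured to TGGGTTA it was at −53, −54, −54, −52 and −50 in the same 5 genes, which is a range of a few bases. CTTGAC followed near the 3′ end, and then, within 3 bases of the annotated last base, 4 or 5 T followed by GCA.

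TATATA occurred within 100 bases upstream, on the gene's strand, in all 6 genes, in C17G10.14 at −43. This run and the longer one below were read from the members' own sequences with their peaks known. Their counts in the members were thus fixed in advance and test nothing, while TATAAA was set beforehand. TATATA was in 3.47% of all unclassified ncRNA genes (269 of 7757) and 5.68% of protein-coding genes (1135 of 19972). Among genes with a peak it was in 7 of 28 snRNA genes, in 0 of 14 SL2 spliced leader genes, in 1 of 39 snoRNA genes and in 0 of 37 tRNA genes. TATAAA, searched on both strands, was in 0 of the 6, in 9.08% of all unclassified ncRNA genes and in 19.3% of protein-coding genes. The longer run seen in the 5 short genes, TATATATA with G before and C after it, was upstream of 9 of 7757 unclassified ncRNA genes (0.116%), the 5 included, and of 1 of 19972 protein-coding genes. None of the 5 genes with it that are not members had an IDR summit in the window.

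Other letters known from small RNA genes were counted in the same way. The Sm-type run ATTTTTG is where Sm proteins load on spliceosomal RNAs. Within the annotated span it was in 0 of the 6 genes. Among genes with a peak it was in 20 of 28 snRNA genes and in 11 of 14 SL2 genes. It was in 5.71% of all unclassified ncRNA genes, so its absence from 6 genes is near the share of their class. Bases past the annotated 3′ end were not searched for it, and in F08G2.13 the printed line holds ATTTTTG there. CTGTTTCA, the core of the letters found upstream of 21U-RNA genes, was in 0 of the 6, in 0.799% of all unclassified ncRNA genes and in 0.806% of protein-coding genes on either strand. TTTT lay within 30 bases past the 3′ end in 4 of the 6, in 31.1% of all unclassified ncRNA genes and in 49.4% of protein-coding genes. Among genes with a peak it was there in 27 of 39 snoRNA, 10 of 28 snRNA, 5 of 14 SL2 and 36 of 37 tRNA genes. In F08G2.13, W01D2.7 and W01D2.8 the counted run began 7, 14 and 6 bases past the end and was not the run before GCA. By RNAfold the minimum free energy per base of the 5 short genes was between −0.363 (W01D2.8) and −0.207 (W01D2.7) kcal/mol, and between 13.8% and 47.8% of 2027 unclassified ncRNA genes of 50 to 100 bases were as low.

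The upstream stretches were then scored with a 20-base weight matrix built from 80 snRNA, SL2 and snoRNA genes with a peak. These were the 81 such genes, none of them at a member's peak, less 1 that shared a peak with a closer gene of these classes. Sites at the strongest gene of each class show what the matrix had learned. The lines give each site and its place.
W05B2.8, chrIII:10989607-10989626, strand plus: AGCGGAACCCATGACATGTC
sls-2.8, chrIII:12250401-12250420, strand plus: GGCGGAACCCGGCAAATGTC
Y53F4B.47, chrII:15025956-15025975, strand minus: CGCGGAACCCGTCACTTGTC

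Of the 80 genes it was built from, 67 (83.8%) scored in the top 1% of protein-coding upstream stretches, at a median site offset of −64 and a median score of 22.4 bits. No genes were held out of the fit, so that share is of the fitted genes themselves and favours them over the members. None of the 6 members scored in the top 1%, on the gene's strand within 100 bases upstream. W01D2.7 came nearest, at 5.92 bits, a score that 1.03% of protein-coding genes reached. W01D2.9 scored 2.59 bits (3.75%), F08G2.13 1.19 bits (6.31%) and C17G10.14 0.540 bits (7.92%). W01D2.8 at −2.43 bits (20.7%) and F08G2.12 at −4.38 bits (35.3%) were within the bulk of protein-coding genes. The most frequent 8 letters of the 80 genes, CGGAACCC, were in 26 of them (32.5%), in 0 of the 6 members and in 0.0501% of protein-coding genes on either strand.

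C17G10.14 differed when the window was set by its peak. Within 100 bp of the IDR summit and on both strands, a search added after the data were seen, it scored 19.7 bits, reached by 0.0501% of equally long windows at protein-coding genes. The site, CGCGGAACTCGCAATAAGTC, is printed in capitals in the stretch above, at chrII:5599693-5599712 on the plus strand, with its centre at −7.5 bp from the summit. Its first base is 236 bases upstream of the annotated 5′ end. The same search gave the 5 short genes scores that between 5.51% (W01D2.7) and 73.2% (W01D2.8) of protein-coding windows reached.

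The 5 short genes shared letters at 1 place upstream of the TATA run. The 20 bases that end 21 bases before TATATA closed with GTC in all 5, as the last letters of the sites above do. In W01D2.7, W01D2.9 and F08G2.13, the 3 short genes with the higher scores, these 20 bases are the very site that the matrix scored best. In W01D2.8 and F08G2.12 its best site lay elsewhere, and the 20 bases themselves scored only −17.3 and −17.6 bits. In these 2 genes the likeness to the matrix sites thus rests on the letters GTC. The lines give those 20 bases, with GTC in capitals.
F08G2.12, chrII:13835006-13835025, strand minus: ccacttatcaacacaccGTC
F08G2.13, chrII:13834576-13834595, strand minus: accattcctcgagaaacGTC
W01D2.7, chrII:14804410-14804429, strand plus: gccattcctcgaaaaatGTC
W01D2.8, chrII:14801479-14801498, strand minus: gcaattcttctagaaaaGTC
W01D2.9, chrII:14804723-14804742, strand plus: accattcctcaagaagtGTC

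Of the 20 positions, 7 were identical in the 5 genes, and these include GTC, the letters read from these same genes. F08G2.12 stood apart from the other 4, which share ATTC near the start. GTC at this spacing from TATATA was in 11 of 1135 protein-coding genes (0.969%) and in 7 of 260 unclassified ncRNA genes other than members and the units described further on (2.69%) that have TATATA in the upstream window. It was in 15 of 18 snRNA genes that have TATATA, with M163.13, one of those units, left out, and in all 6 of those with a peak. Among genes with GTC there, 6 of 15 snRNA genes, 2 of 7 unclassified ncRNA genes and 0 of 11 protein-coding genes had a peak. Among those with TATATA and no GTC there, 0 of 3 snRNA genes, 2 of 253 unclassified ncRNA genes and 5 of 1124 protein-coding genes had one. The spacing was read from the 5 genes after their peaks were known, and snRNA genes are near copies of one another, so these are counts with no test.

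The shared letters were looked for in the whole genome on both strands. TGGGTTA followed after 20 to 50 bases by CTTGAC occurred 49 times. In 10 of the 49 TATATA began 35 to 65 bases before TGGGTTA, and all 10 also had GTCCGG within 30 bases before it, which 0 of the other 39 had. The 5 short genes were 5 of the 10. The other 5, named here because this search found them after the data were seen, were mir-2214, annotated as a microRNA gene, and the ncRNA gene B0361.13, side by side on chromosome III and read away from each other, and M163.13, M163.15 and M163.12 in a row on the plus strand of chromosome X. M163.13 is annotated as snRNA, and M163.15 and M163.12 as ncRNA. They are printed over 120 bases with the same blocks in capitals, but their TATA run is TATATA and not the longer run of the short genes. In each it is followed by A, and in all but B0361.13 it overlaps TATAAA, which the members lack upstream.
mir-2214, chrIII:7278667-7278786, strand plus: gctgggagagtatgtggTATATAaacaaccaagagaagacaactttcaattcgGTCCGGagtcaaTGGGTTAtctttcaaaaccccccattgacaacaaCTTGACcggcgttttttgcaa
B0361.13, chrIII:7278459-7278578, strand minus: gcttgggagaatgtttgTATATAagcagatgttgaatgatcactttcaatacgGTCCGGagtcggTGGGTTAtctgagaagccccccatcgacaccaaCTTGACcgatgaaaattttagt
M163.13, chrX:14476820-14476939, strand plus: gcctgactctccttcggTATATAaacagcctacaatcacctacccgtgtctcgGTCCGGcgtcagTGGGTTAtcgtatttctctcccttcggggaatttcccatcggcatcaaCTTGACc
M163.15, chrX:14477149-14477268, strand plus: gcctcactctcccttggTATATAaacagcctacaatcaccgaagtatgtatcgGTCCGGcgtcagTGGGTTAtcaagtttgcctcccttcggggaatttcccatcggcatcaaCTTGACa
M163.12, chrX:14477498-14477617, strand plus: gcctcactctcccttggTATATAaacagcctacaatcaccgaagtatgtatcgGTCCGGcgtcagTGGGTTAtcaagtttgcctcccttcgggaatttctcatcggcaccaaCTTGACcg

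An IDR summit lay within 200 bp of TGGGTTA in 9 of the 10 units, over 8 distinct peaks, and in 0 of the 39 places without TATATA. The 39 also lacked GTCCGG, and none overlapped an annotated noncoding RNA gene on its strand, 21U-RNA genes not counted. Several lay close together on chromosome V with the same spacer of 21 bases, and whether these are copies of 1 repeat was not tested. For the 5 short genes having a summit is what chose them. The count that the choice of members did not fix is thus 4 of 5 outside units, over 3 distinct peaks. Within 100 bp that count was 3 of 5, without B0361.13. The search settings and the window were set with the data known, so these counts test nothing. M163.13, M163.15 and M163.12 are near copies of one another, so the outside units are not 5 separate cases. mir-2214 and B0361.13 shared 1 peak of signal 535 (rank 16), with 344 at rank 11 in replicate 1 and 190 at rank 28 in replicate 2. M163.13 had one of 365 (rank 32), with 181 at rank 31 in replicate 1 and 186 at rank 29 in replicate 2. M163.12 had a weak one, 66.8 (rank 93), with 48.1 at rank 63 in replicate 1 and 17.6 at rank 249 in replicate 2. M163.15 had none within 200 bp in any list. Of the 36-base words across M163.15 and M163.12, 54.8% and 56.3% occurred once in the genome, and whether that bears on their low signals was not tested.

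In the 5 units outside chromosome II TATATA began at −48 from TGGGTTA, beside −54 to −50 in the 5 short genes. The 20 bases that end 21 bases before it closed with GTC in all 10 units. Of the 20 positions 5 were identical throughout, those of GTC among them. In the outside units the matrix scored these bases between −12.2 bits (B0361.13) and 4.93 bits (M163.15 and M163.12). Over the 170 bases around TGGGTTA, identity between 2 of the 5 short genes had a median of 62.9% (10 pairs) and that between a short gene and an outside unit 58.8% (25 pairs). Between 2 outside units the median was 59.8% (10 pairs), with M163.12, M163.13 and M163.15 at 84.4% to 93.6%. No unrelated sequences were aligned beside these. By blastn F08G2.12 matched B0361.13 at 90.7% and mir-2214 at 83.3%, each over 54 bases, a shorter span at higher identity than its match to W01D2.8.

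The summits did not sit at 1 place in the units. In the IDR list they were at −46 (W01D2.7), −56 (F08G2.13) and −63 (W01D2.8) from TGGGTTA, close to the TATA run. In F08G2.12 the summit was at −111 and in W01D2.9 at −162, farther upstream than the 20-base stretch. In the outside units the IDR summits were at −75 (mir-2214), −66 (M163.13) and −1 (M163.12). The peak of mir-2214 lay at −144 from TGGGTTA of B0361.13. Replicate 1 placed F08G2.12's summit at −83, within that stretch, and W01D2.9's at −156, while replicate 2 placed them at −111 and −146. W01D2.9 lies downstream of the stronger W01D2.7 peak in the same interval and F08G2.12 upstream of the stronger F08G2.13 peak, and whether the neighbour moves the summit was not tested.

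**Figure D4:**
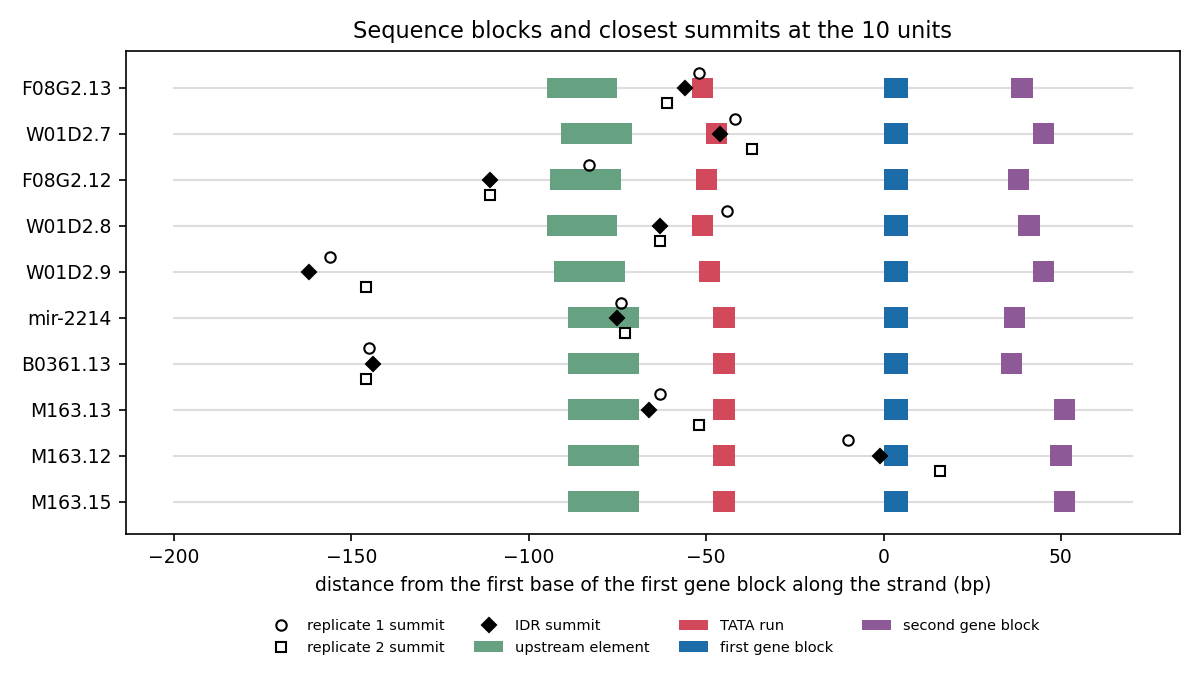
The 10 units aligned at the first base of the first gene block, TGGGTTA (blue), with the second gene block CTTGAC (purple), the TATA run (red), the 20-base stretch that ends in GTC (green) and the summits of replicate 1 (circles), replicate 2 (squares) and the IDR list (diamonds), by distance in bp. The 5 genes of chromosome II come first. Their TATA runs begin between −54 and −50, and 28 to 35 bases separate TGGGTTA from CTTGAC. Summits of the IDR list range between −162 (W01D2.9) and −46 (W01D2.7) in these 5 genes. In the other units they lie between −144 (B0361.13) and −1 (M163.12), and M163.15 has none.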

How the data were processed

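SNPC-4 ChIP-seq peak lists of 2 biological replicates were used in ce11, per the labels. Each list gives a peak interval, a signal value (deposited by the authors, scale not stated) and a summit position (an offset deposited by the authors). The aligner, the peak caller and the IDR threshold were not given in the sources used here. Both replicates' lists drew on 1 further common file of unstated content, per the deposited records. Lists in ce10 were not used, since the reference was of ce11. Read depth is unknown, because the files give no read counts, so no interval or floor was computed. In the IDR list 78.0% of summits are the interval's midpoint; at the members they are not, except for C17G10.14 in replicate 2.

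Genes came from Ensembl 115 (WBcel235), and sequence from RefSeq. Summits were set against 5′ ends within 300 bp. The matrix was fitted by expectation maximisation with 1 site per sequence and was tested on simulated data, in Python 3.11.15 with numpy 2.4.6, pandas 2.3.3 and Biopython 1.88; blastn 2.17.0 and RNAfold 2.7.2 were also used. Named genes were the members, genes within 1 kb or next to them, close copies, the 3 strongest other ncRNA genes of chromosome II, those nearest outside the window and the strongest snRNA, SL2 and snoRNA gene; the units came from the sequence search. Members and lists were chosen with earlier results of these data known. There is 1 group, so no comparison of conditions or test over samples was made.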

Additional observations from a re-analysis of the deposited data

How the results depend on the processing

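Across 14 results and 49 alternatives, 34 kept to their value within the limits used and 15 moved. The limits were wide for counts: 6 units beside 9, and 79 or 161 unclassified ncRNA genes beside 112, counted as kept. Offsets and percentiles were judged against the spread of the same 2 replicates. The 6 members kept their peaks among the stronger 50% of the list, in the full pooled list, with 1000 bp and in each replicate's 381 strongest peaks. These outcomes were fixed in advance or nearly so, since the members were picked for strong peaks. The pooled list also holds every IDR peak, and 1000 bp contains 300 bp. These outcomes thus support nothing, though they are counted among the 34. At 150 bp, and when the peak had to overlap the gene, 5 members kept a peak. C17G10.14 is lost at 150 bp. The 112 unclassified ncRNA genes with a peak became 72 in that stronger part of the list, 46 when peaks near a small RNA gene were dropped, and 119 to 122 with 1 replicate left out. The median offset of −67.5 was −63.5 to −51.5 with 1 replicate left out, and 6 of 12 single-gene offsets moved. The median signal percentile of 99.7 in replicate 1 was 91.2 among its 381 strongest peaks, and 99.9 in replicate 2 was 90.3. The matrix count of 0 became 1 with 24 bases and 1 with snRNA and SL2 genes alone (W01D2.7 both times), and 1 with summit windows (C17G10.14); with 16 bases it was 0.

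Settings for the sequence units were chosen after seeing the data. The 9 units with a summit were 6 within 100 bp and 9 otherwise, each replicate left out included. Of the 39 places without TATATA, 0 had a summit except in the full pooled list, where 4 did, with signals between 3.29 and 4.94. No paired analysis was possible because there is 1 group. The 2 replicates are the only measure of error, and no control was analysed here. W01D2.7 and W01D2.9 share an interval, which limits how well their signals are told apart.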
